A study of Danio rerio with 8 samples.

Results

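Chemokines and cytokines are the secreted or membrane-bound signals through which injured tissue calls in and instructs leukocytes, and their transcripts were followed here in the injured heart ventricle of zebrafish that lack a normal cox7a1 gene. Gene rows were taken by the spelling of the zebrafish symbol: chemokines (ccl or cxcl with a number), the TNF superfamily (tnfa, tnfb and tnfsf), interleukins (il with a number and no r for receptor), m17, csf1a and csf1b. Of 32520 gene rows, 96 were taken, and 1 chemokine row was left out by the same rule. A pair of these 96 rows is taken by spelling alone and encodes no ligand, namely il6st, the shared receptor chain gp130, and il4i1, an enzyme that oxidises amino acids in mammals. They are named apart from the 94 ligand rows, but counts and medians over the 96 rows, or over the tested ones, include them unless stated. The samples were adult cox7a1-/- mutants and their wildtype siblings, all cryoinjured, with the ventricle taken 7 days after injury. Each genotype had 4 libraries, each from a pool of 5 ventricles, and single fish, uninjured hearts, the age of the fish and the exact cox7a1 allele were not given in the sources used here.

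Chemokines are small proteins that guide leukocytes along a gradient through receptors on the cell surface. The CC chemokines act mostly on macrophages and lymphocytes, and many CXC chemokines act on neutrophils. TNF superfamily ligands signal for inflammation, cell death or lymphocyte survival, interleukins carry signals between leukocytes and stroma, and the ligands of the CSF1 receptor keep macrophages alive. In zebrafish many chemokine genes lie in tandem arrays of close copies. In the cryoinjured zebrafish heart, macrophages and neutrophils enter the wound early, and later the scar is cleared while heart muscle regrows.

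Total counts ran from 41556101 to 69057989 per pool. Levels are given as CPM, the count of a gene per 1000000 counts of its scaled library. The targeted gene cox7a1 stood at 209.7, 278.0, 285.9 and 210.6 CPM in wildtype replicates 1 to 4 and at 59.5, 113.1, 88.5 and 193.9 CPM in the mutants. The groups did not overlap, but mutant replicate 4 lay close to the lowest wildtype pools. Its log2 fold change, mutant over wildtype, was -1.11 ± 0.295 (SE) with an edgeR adjusted p of 0.0776, which misses the threshold of 0.05 (two-sided exact permutation p = 0.0286, the smallest that 4 pools against 4 allow). Muscle of the heart was present in each pool, with its myosin light chain MYL7 between 8422 and 14277 CPM. None of the 9 lists of cell type markers was separated by genotype in its summed level. Erythrocyte markers had the median log2 fold change farthest from 0 of the 9 lists, 0.49. Their sums were 1229, 677.7, 1811 and 1484 CPM in mutant replicates 1 to 4 and 622.9 to 1017 CPM in wildtype pools. A ventricle pool mixes many cell types, so fewer cells of a type and less RNA per cell cannot be told apart.

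At this stage of healing the ventricle held a few ligands at moderate levels and most at very low ones. Per exonic kilobase (RPKM, CPM divided by the exonic length in kilobases), 6 of the 96 rows reached a wildtype mean of 10 or more and 58 stayed under 1. The receptor chain il6st led with 23.4 RPKM ± 2.17 (SD, n = 4) in wildtype. Among ligands the CC chemokine ccl34a.4 came next with 21.9 RPKM ± 12.4, followed by cxcl12b, a homeostatic chemokine made by stromal and vascular cells, with 17.6 ± 2.28 RPKM. They were followed by cxcl18b, which draws neutrophils in zebrafish, with 16.2 ± 4.17 RPKM, ccl35.1 with 15.9 ± 2.05, and the death receptor ligand TNFSF10 (TRAIL) with 12.1 ± 4.16. The macrophage growth factor il34 stood at 8.87 ± 1.90 RPKM, rank 7 in both genotypes. Neighbours in this order from rank 1 to rank 7 overlapped within their SD. The classical inflammatory signals were scarce, il1b with a mean of 1.00 CPM in wildtype and tnfa with at most 21 counts in any pool.

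No ligand row passed the test between genotypes. The comparison used the quasi-likelihood test of edgeR on all 17949 genes that passed a filter on low counts, and 59 of the 96 rows were among them. At a Benjamini-Hochberg adjusted p under 0.05, 0 of these 59 rows were called, against 2.02% of all tested genes (1.14% higher and 0.88% lower in mutants). Below an unadjusted p of 0.05, 11 of 59 rows were lower, where 8.6% of all tested genes were, and 2 were higher, where 9.42% were. DESeq2, run as another test, called 3 of the 59 rows (tnfb and ccl34b.1 lower, il4i1 higher), against 2.68% lower and 3.42% higher over all tested genes.

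The values of the rows leaned to one side. The log2 fold change, mutant over wildtype, was below 0 in 43 of the 59 rows, against 49.6% of all tested genes, and its median was -0.33 against 0.00 over all tested genes. Without il4i1 and il6st it was below 0 in 43 of 57 rows, with a median of -0.34. All 11 rows that were lower at an unadjusted p under 0.05 encode ligands, as do 57 of the 59 tested rows. Both rows that were higher are the ones that encode no ligand (il4i1 and il6st). In 5 rows (8.47%) all mutant pools were under the lowest wildtype pool, where 5.48% of all tested genes did so. They were ccl34b.1, ccl35.2, cxcl12b, tnfsf10l4 and il13. The reverse held in 0 rows, where it did in 6.27% of all tested genes. The tested rows share pools, and neighbouring copies can share cells of origin, so they are not independent of each other. The size of the lean depended on single pools. The median was -0.17 when wildtype replicate 1 was left out, -0.21 when wildtype replicate 3 was, and -0.23 when mutant replicate 3 was. In each of these cases 6 rows, of 60, 62 and 62 tested, were lower at an unadjusted p under 0.05. Of all tested genes 7.62%, 6.86% and 6.55% were. With each other pool left out the median lay between -0.38 and -0.26.

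**Figure D1:**
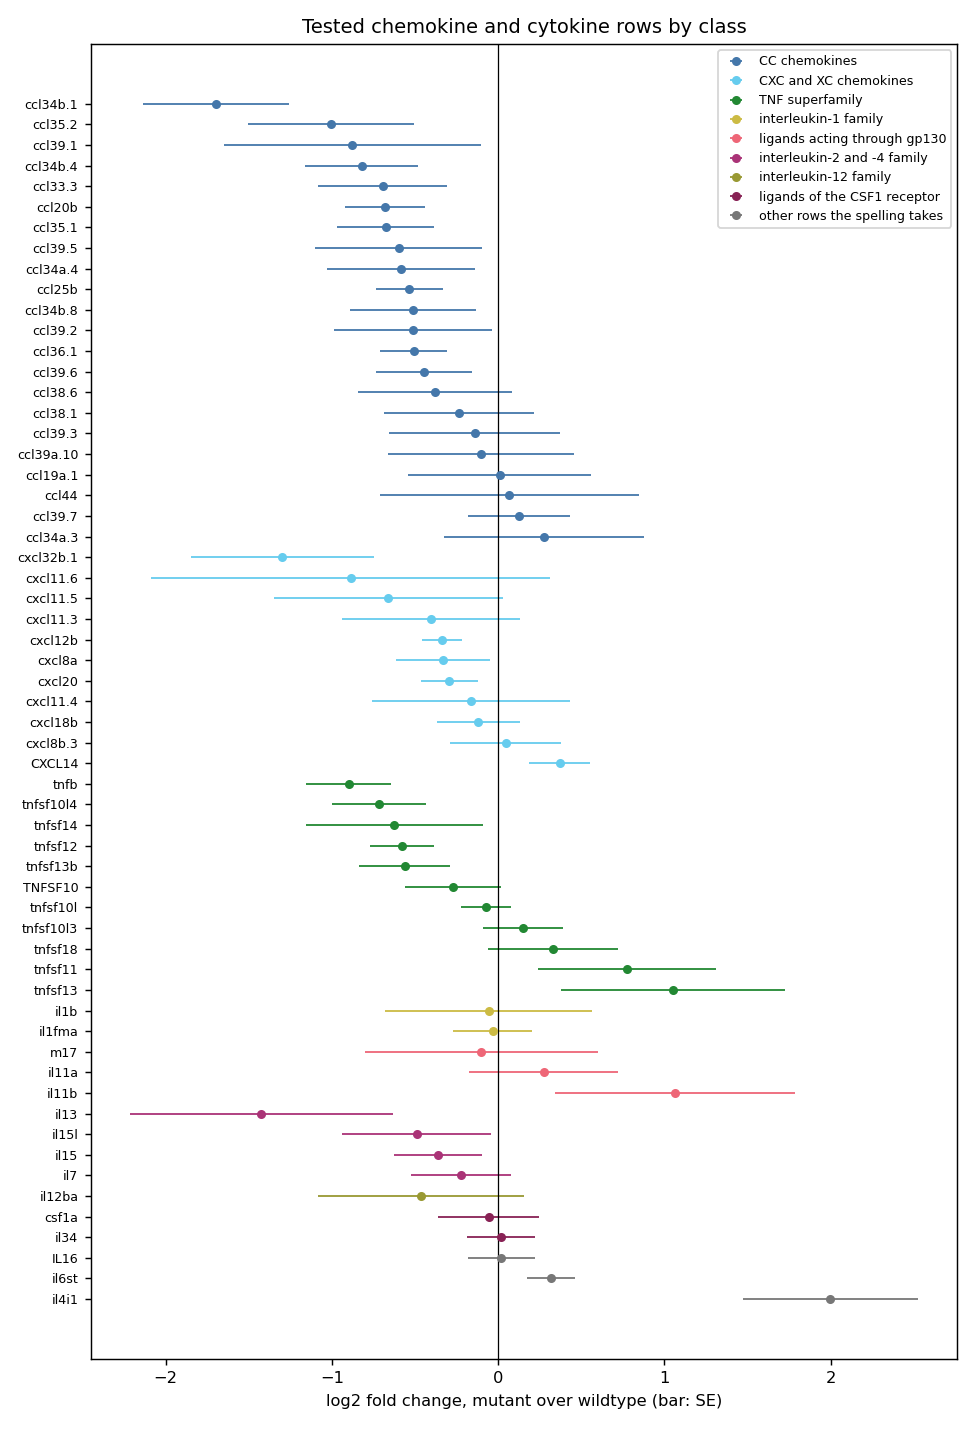
Log2 fold change (mutant over wildtype, x axis) of the 59 tested rows, ordered by class and then by value, with the standard error as a bar. Of the 22 CC chemokine rows 18 lie left of 0, and il4i1 stands farthest to the right at 2.00.

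Among CC chemokines, 18 of 22 tested rows had values below 0, with a median of -0.51, and 6 of 22 were lower at an unadjusted p under 0.05, but none passed the adjusted threshold. Over all tested genes 49.6% were below 0 and 8.6% were lower at that unadjusted p. The row with the smallest p of all ligands was ccl34b.1 (ENSDARG00000093608, GRCz11, chromosome 24, 27396989 to 27400630, minus strand, 1576 exonic bases). Wildtype pools held 1.65, 0.822, 0.637 and 0.950 CPM (97, 42, 32 and 48 counts in replicates 1 to 4) and mutant pools 0.245, 0.243, 0.352 and 0.404 CPM (11, 12, 16 and 25 counts). Every mutant pool was below every wildtype pool, and wildtype replicate 1 was the highest. Its log2 fold change was -1.70 ± 0.440 (SE), or 0.309-fold, with an edgeR adjusted p of 0.0744. DESeq2 gave an adjusted p of 0.00714, and with each pool left out in turn edgeR's ranged from 0.0856 to 0.202.

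The neighbour ccl34b.4 held 4.54, 2.52, 1.93 and 1.64 CPM in wildtype and 1.38, 1.97, 1.14 and 1.53 CPM in mutant pools. The groups overlapped, and wildtype replicate 1 again stood highest. Its log2 fold change of -0.82 ± 0.338 (edgeR adjusted p = 0.229) became -0.44 when wildtype replicate 1 was left out. Of the 6 rows of this array on chromosome 24, between 27396989 and 27512851, 4 were tested. These 4 had values below 0, where 49.6% of all tested genes did, among them the CXC row cxcl32b.1 (-1.30 ± 0.551, edgeR adjusted p = 0.243). Reads that map to several places were not counted, so where copies in this array share sequence the split of reads is uncertain.

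Except for the low row ccl35.2, the CC chemokines named next were more abundant than ccl34b.1 and differed by less. The row ccl35.1 averaged 12.8 CPM ± 1.65 in wildtype pools, which lay between 10.6 and 14.6 CPM, and the mutant pools held 9.08, 13.3, 5.37 and 4.36 CPM. Mutant replicates 3 and 4 were low while replicate 2 lay within the wildtype range, so the mutant spread (SD 4.05) was wider (log2 fold change -0.68 ± 0.294, edgeR adjusted p = 0.254). In ccl20b, whose mammalian counterpart draws lymphocytes and dendritic cells through CCR6, wildtype pools held 2.59, 2.17, 3.23 and 2.97 CPM and mutant pools 1.65, 1.28, 1.69 and 2.20 CPM. Only wildtype replicate 2 and mutant replicate 4 crossed, by a narrow margin, and the log2 fold change was -0.68 ± 0.243 (edgeR adjusted p = 0.172). The row ccl25b, whose mammalian counterpart guides thymocytes, averaged 8.19 ± 1.99 CPM in wildtype and 5.66 ± 1.01 in mutant pools, and ccl36.1 4.97 ± 1.12 and 3.501 ± 0.457 CPM (SD, n = 4). Their log2 fold changes were -0.53 ± 0.201 and -0.51 ± 0.201, with edgeR adjusted p-values of 0.194 and 0.212, and both overlapped between genotypes. The low row ccl35.2 (7 to 30 counts per pool) did not overlap, with a log2 fold change of -1.004 ± 0.499 (edgeR adjusted p = 0.316).

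The most abundant CC chemokine by RPKM, ccl34a.4 on chromosome 2, varied more among pools than between genotypes. Wildtype pools held 20.8, 8.14, 11.51 and 5.94 CPM and mutant pools 10.7, 12.3, 3.25 and 4.75 CPM. The log2 fold change was -0.59 ± 0.444 (edgeR adjusted p = 0.534), and -0.15 without wildtype replicate 1. Its neighbour ccl34a.3 had a value of the other sign, 0.28 ± 0.603. In the array of 10 rows on chromosome 25 that holds ccl33, ccl35.1 and the ccl39 copies, between 12841940 and 13050959, 8 rows were tested. Of these, 7 had values below 0, where 49.6% of all tested genes did. The ccl39 rows there ranged from -0.88 in ccl39.1 to 0.13 in ccl39.7.

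**Figure D2:**
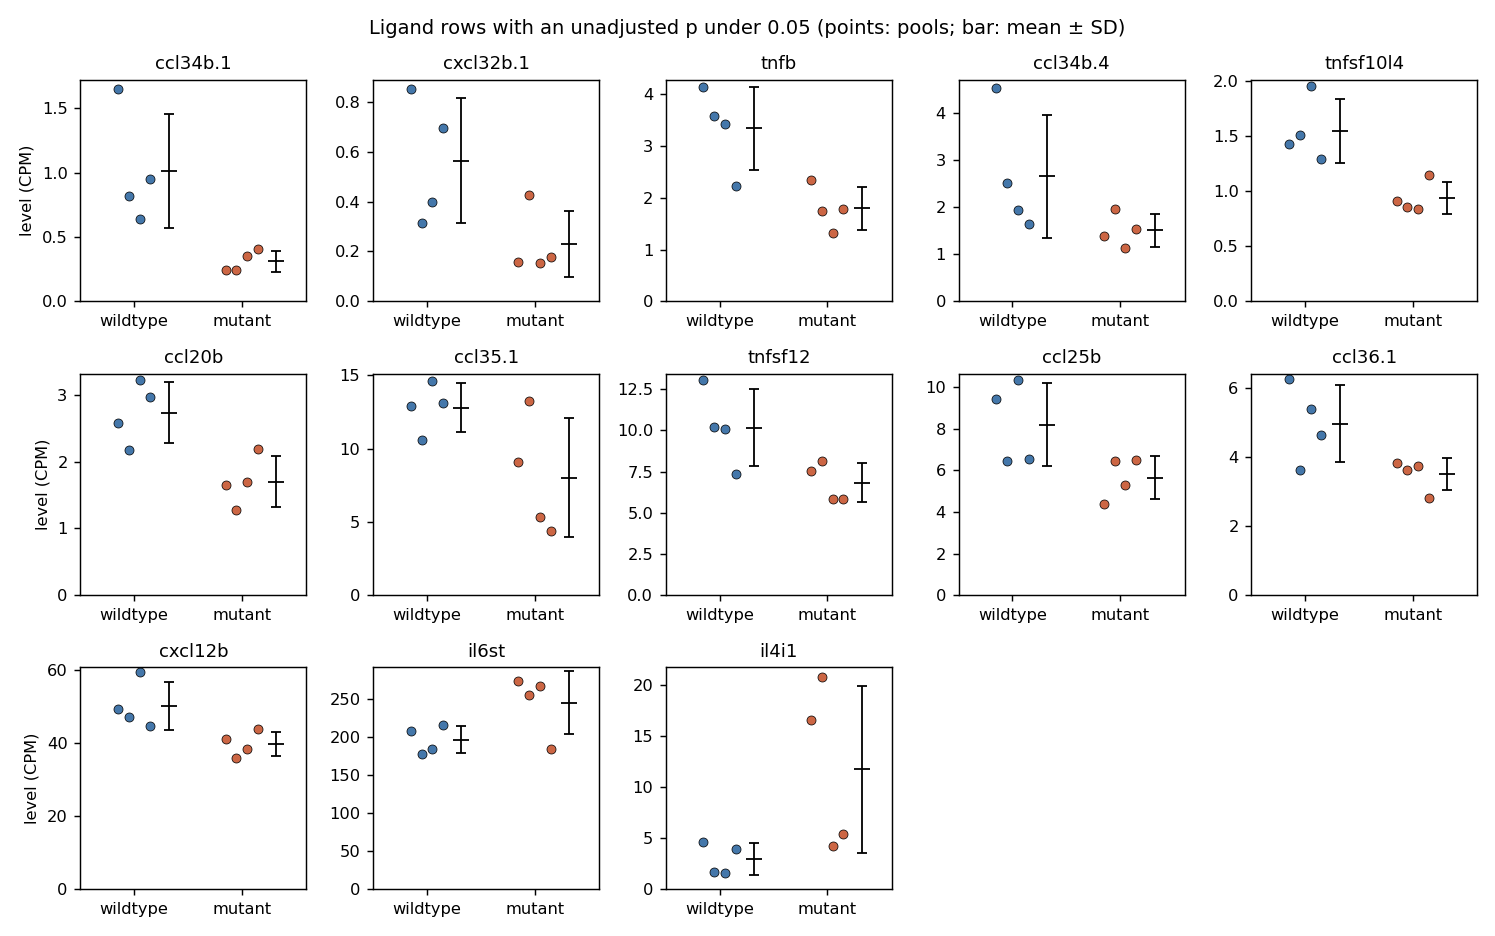
Level in CPM (y axis, from 0) of the 13 rows with an unadjusted p under 0.05, with a point for each pool in the order of the replicate number and the mean ± SD as a bar. The first 11 panels, from ccl34b.1 to cxcl12b, have lower mutant means, and il6st and il4i1 have higher ones, with mutant replicates 1 and 2 of il4i1 above 16 CPM.

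Among CXC chemokines, 9 of 11 tested rows had values below 0 (median -0.33), and 2 were lower at an unadjusted p under 0.05, against 49.6% and 8.6% of all tested genes. The most abundant by CPM was cxcl12b (ENSDARG00000055100, GRCz11, chromosome 22, 26929554 to 26945493, minus strand), with 49.1, 47.1, 59.4 and 44.7 CPM in wildtype and 40.9, 35.9, 38.1 and 43.6 CPM in mutant pools. The groups did not overlap, although wildtype replicate 4 and mutant replicate 4 lay close to each other. The log2 fold change was small, -0.34 ± 0.120 (0.791-fold, edgeR adjusted p = 0.170), and stayed between -0.40 and -0.24 over all alternatives. In contrast, CXCL14, a chemokine of epithelia and stroma in mammals, averaged 4.89 ± 1.13 CPM in wildtype and 6.33 ± 0.487 in mutant pools (0.37 ± 0.183, edgeR adjusted p = 0.315).

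The neutrophil chemokines overlapped between genotypes. The level of cxcl18b was 24.1, 17.5, 16.5 and 13.1 CPM in wildtype and 21.03, 19.6, 9.04 and 15.9 CPM in mutant pools (log2 fold change -0.12 ± 0.251, edgeR adjusted p = 0.851). Of the interleukin-8 homologs, cxcl8a had -0.33 ± 0.282 and cxcl8b.3 0.05 ± 0.335, with edgeR adjusted p-values of 0.587 and 0.963. The row cxcl20 averaged 10.6 ± 1.84 CPM in wildtype and 8.65 ± 1.53 in mutant pools (-0.29 ± 0.171, edgeR adjusted p = 0.402). Members of the cxcl11 group, whose mammalian counterpart binds CXCR3, were low and uneven: cxcl11.3 held 3.79, 1.72, 2.67 and 0.752 CPM in wildtype and 2.34, 2.90, 0.704 and 0.840 CPM in mutant pools. Replicates 1 to 3 of wildtype and 1 and 2 of the mutants were the higher ones, so genotype did not sort this row. The 4 tested cxcl11 rows had values from -0.89 to -0.16, with standard errors from 0.534 to 1.2. The rows cxcl11.6 and cxcl11.7 share exonic sequence on the same strand, where reads could not be assigned to either.

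In the TNF superfamily, 7 of 11 tested rows had values below 0 (median -0.27), where 49.6% of all tested genes did, and 3 were lower at an unadjusted p under 0.05, where 8.6% were. The cytokine gene tnfb, a TNF paralog (ENSDARG00000013598, GRCz11, chromosome 15, 34699585 to 34702661, plus strand, 1764 exonic bases), held 4.13, 3.58, 3.43 and 2.24 CPM in wildtype and 2.34, 1.74, 1.32 and 1.78 CPM in mutant pools. Wildtype replicate 4 was the low wildtype pool and lay just under mutant replicate 1, and the other pools were separated. The log2 fold change was -0.90 ± 0.256, or 0.536-fold, with an edgeR adjusted p of 0.0963. It passed the threshold without wildtype replicate 4 (adjusted p = 0.0479, where 1.09% of all tested genes were called lower) and with DESeq2 (0.0215), and edgeR's adjusted p rose to 0.250 in the least favourable alternative. This gene lies on chromosome 15, as cox7a1 does, 14.29 Mb away.

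The ligand tnfsf12 (TWEAK) held 13.1, 10.2, 10.1 and 7.33 CPM in wildtype and 7.51, 8.13, 5.85 and 5.83 CPM in mutant pools. Wildtype replicate 4 lay within the mutant range, and the other wildtype pools lay above it (log2 fold change -0.58 ± 0.191, edgeR adjusted p = 0.147). The row tnfsf10l4, a TRAIL-like ligand, did not overlap, with 1.43, 1.51, 1.95 and 1.29 CPM against 0.914, 0.851, 0.836 and 1.15 CPM (-0.72 ± 0.285, edgeR adjusted p = 0.214). The other TRAIL-like rows were more abundant: TNFSF10 had -0.27 ± 0.289, tnfsf10l -0.07 ± 0.150 and tnfsf10l3 0.15 ± 0.240. The value of TNFSF10 ranged from -0.58 without mutant replicate 1 to -0.04 without wildtype replicate 1. The B cell survival factor tnfsf13b (BAFF) stood at 2.61 ± 0.571 CPM in wildtype and 1.77 ± 0.4998 in mutant pools (-0.56 ± 0.276, edgeR adjusted p = 0.310). Its relative tnfsf13 (APRIL) was at 2 to 24 counts per pool with a value of 1.05 ± 0.673. The osteoclast factor tnfsf11 (RANKL) had 0.77 ± 0.536, with wildtype replicates 2 and 3 at 0.430 and 0.319 CPM as the lowest pools and mutant replicate 1 at 2.34 CPM as the highest.

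Interleukins and macrophage growth factors gave no call in either direction, where 2.02% of all tested genes were called. Each of these classes held few tested rows, so the absence of a call says little about them. In the interleukin-1 family il1b followed single pools and not genotype, with 1.85, 0.783, 0.896 and 0.475 CPM in wildtype and 2.21, 0.466, 0.945 and 0.274 CPM in mutant pools. The fish-specific il1fma was steadier, at 6.51 ± 0.916 CPM in wildtype and 6.38 ± 2.08 in mutant pools (log2 fold change -0.03 ± 0.238). The ligands that act through gp130 include il11a, which in zebrafish is induced by injury. It held 0.340, 0.626, 1.14 and 1.19 CPM in wildtype and 0.937, 0.770, 0.770 and 1.48 CPM in mutant pools (0.28 ± 0.447, edgeR adjusted p = 0.801), and the value ranged from 0.0058 without wildtype replicate 1 to 0.49 without wildtype replicate 4. Its paralog il11b reached 1.06 ± 0.720, a value carried by mutant replicate 2 (0.912 CPM against 0.0598 to 0.306 in the other pools) that was 0.18 without it. The third tested member, m17, had -0.10 ± 0.702, and il6 had between 3 and 16 counts per pool and was not tested.

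In the interleukin-2 and interleukin-4 family all 4 tested rows had values below 0, where 49.6% of all tested genes did. Their edgeR adjusted p-values lay between 0.374 and 0.756. The type 2 cytokine il13 did not overlap between genotypes, with 28, 15, 15 and 17 counts in wildtype and 12, 0, 9 and 4 counts in mutant pools (log2 fold change -1.42 ± 0.788, edgeR adjusted p = 0.374). The lymphocyte factor il15 averaged 4.07 ± 0.995 CPM in wildtype and 3.16 ± 0.920 in mutant pools (-0.36 ± 0.263), and il7 1.38 ± 0.252 and 1.19 ± 0.311 CPM (-0.22 ± 0.301). Without mutant replicate 1 the value of il15 was -0.19, and il7 ranged from -0.40 without mutant replicate 2 to -0.11 without mutant replicate 3. The row il15l lies on chromosome 15, 39.3 kb before cox7a1, and is the nearest of the 96 rows to it. It held 0.715, 0.665, 0.418 and 0.713 CPM in wildtype and 0.290, 0.304, 0.726 and 0.468 CPM in mutant pools. Mutant replicates 1 and 2 were the lowest and mutant replicate 3 the highest of all, and the log2 fold change was -0.49 ± 0.449 (edgeR adjusted p = 0.622). The interleukin-12 subunit il12ba had -0.46 ± 0.618, and 0.14 without wildtype replicate 3.

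The ligands of the CSF1 receptor differed between genotypes by less than the spread between pools. The gene il34 held 15.1, 11.97, 15.2 and 20.1 CPM in wildtype and 18.5, 20.2, 12.4 and 11.98 CPM in mutant pools (log2 fold change 0.02 ± 0.205, edgeR adjusted p = 0.979). For csf1a the pools ranged from 3.39 to 8.89 CPM in wildtype and from 3.41 to 6.80 CPM in mutants (-0.06 ± 0.302, edgeR adjusted p = 0.948). The paralog csf1b had 18 counts in wildtype replicate 4 and 0 or 1 in each other pool. IL16, a chemoattractant cut from a larger scaffold protein, averaged 13.5 ± 3.81 CPM in wildtype and 13.7 ± 1.84 in mutant pools (0.02 ± 0.203).

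The only rows with higher mutant values at an unadjusted p under 0.05 encode no ligand. The enzyme gene il4i1 (ENSDARG00000056804, GRCz11, chromosome 15, 21694388 to 21702317, minus strand, 2181 exonic bases) held 4.65, 1.62, 1.57 and 3.88 CPM in wildtype and 16.6, 20.8, 4.22 and 5.39 CPM in mutant pools. Mutant replicates 1 and 2 stood far above the rest, while mutant replicates 3 and 4 were close to wildtype replicates 1 and 4. The log2 fold change was 2.00 ± 0.528 (3.99-fold, edgeR adjusted p = 0.0772). It passed the threshold with DESeq2 (adjusted p = 0.0409) and with no filter on low counts (0.0366, where 0.948% of the genes were called higher), and with each pool left out in turn it ranged from 0.0554 to 0.206. This gene lies 1.289 Mb after cox7a1, and whether the shared chromosome plays a part was not tested.

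The receptor chain il6st held 208.7, 177.8, 185.1 and 215.7 CPM in wildtype and 273.8, 255.8, 267.8 and 185.0 CPM in mutant pools. Mutant replicates 1 to 3 lay above all wildtype pools and mutant replicate 4 lay among the lowest wildtype pools. The log2 fold change was 0.32 ± 0.144, with an edgeR adjusted p of 0.272.

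The remaining 37 rows were too low to be tested. Of these, 8 had no count in any pool, namely the interleukin-17 rows il17a/f1, il17a/f2, il17a/f3 and il17c, the barrier cytokines il22 and il26, and the interleukin-12 family rows il12bb and il23a. At 0 of 41556101 to 69057989 counts the transcripts were not detectable at this depth, except that il17c overlaps ZC3H18 on the same strand, where shared reads were not counted. The other 29 rows had at most 40 counts in any pool. The inflammatory cytokine tnfa had 14, 5, 0 and 1 counts in wildtype and 18, 21, 1 and 2 in mutant pools, so replicates 1 and 2 held most of them in both genotypes. The anti-inflammatory IL10 had 0, 4, 16 and 9 counts in wildtype and 2, 4, 0 and 1 in mutant pools. The T cell growth factor il2 had 39 counts in wildtype replicate 1 and between 2 and 9 in each other pool, and ccl38a.5 had 40 and 27 counts in mutant replicates 4 and 2 and 15 or fewer elsewhere.

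The pools differed among themselves across many rows at once. Wildtype replicate 1 was the highest of the 8 pools in 20 of the 59 tested rows, and mutant replicate 3 was the lowest in 17. A wildtype pool was highest in 38 rows and a mutant pool in 21. These counts were made over the 59 rows alone, and whether all tested genes share the pattern was not tested. Summed over the 34 CC chemokine rows, wildtype pools held 75.0, 48.2, 65.5 and 48.1 CPM and mutant pools 44.4, 53.0, 28.7 and 37.2 CPM. Mutant replicate 2 lay above wildtype replicates 2 and 4, so the sums overlapped. Summed CXC chemokines averaged 92.2 ± 13.6 CPM in wildtype and 78.0 ± 9.31 in mutant pools, and the TNF superfamily 73.3 ± 12.8 and 62.7 ± 15.1 CPM (SD, n = 4), also with overlap.

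**Figure D3:**
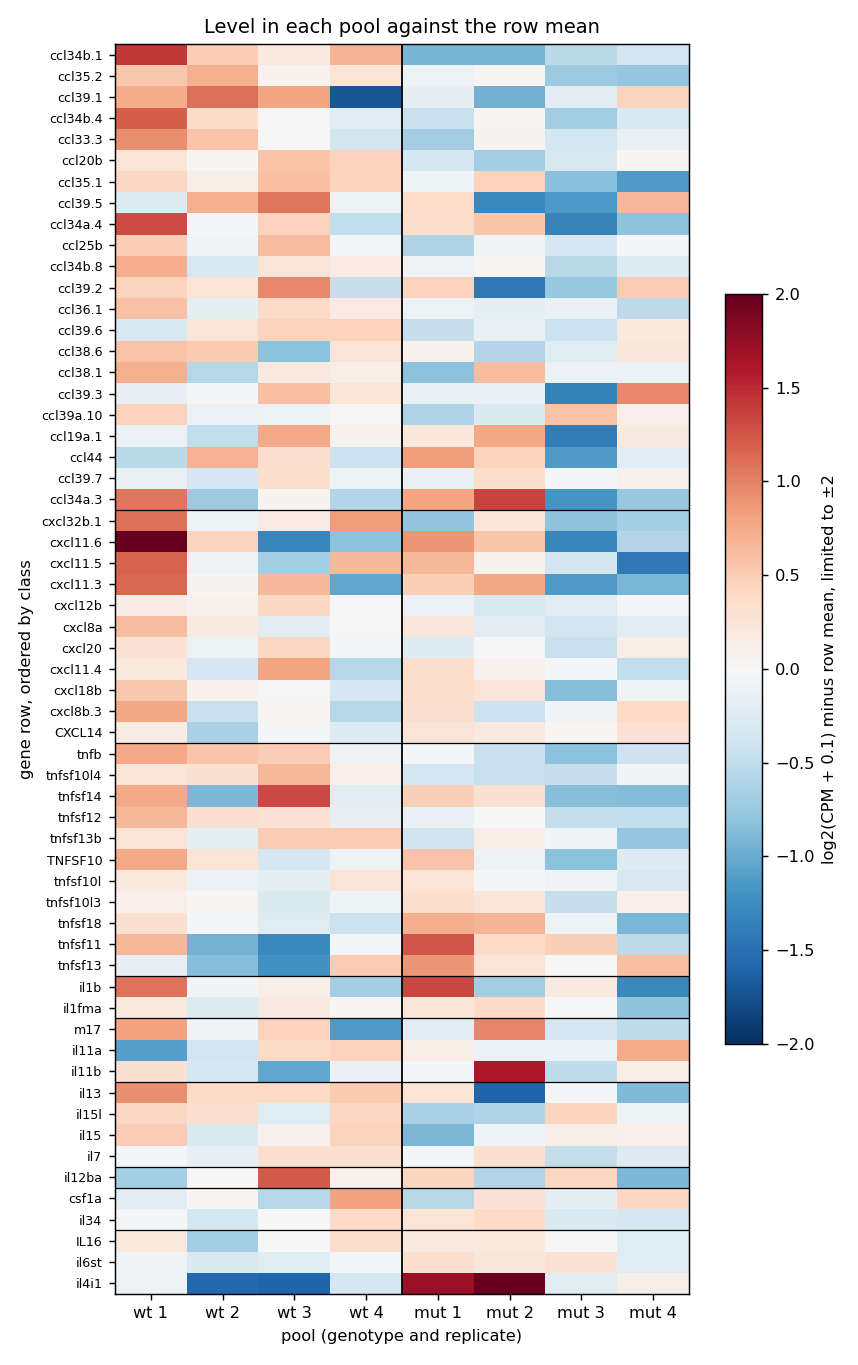
Level of each of the 59 tested rows (y axis, ordered by class) in each pool (x axis) against the mean of the row, as log2(CPM + 0.1), with red above and blue below the mean. Wildtype replicate 1 is red in many rows and mutant replicate 3 blue, while il4i1 is high in mutant replicates 1 and 2.

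Leukocyte markers also varied among the pools. The summed level of 22 macrophage marker rows was 1122, 838.1, 946.7 and 1027 CPM in wildtype and 994.8, 986.4, 699.2 and 854.8 CPM in mutant pools. Wildtype replicate 1 was highest and mutant replicate 3 lowest, as in the summed chemokines, and the genotypes overlapped. The row cd74a made up a large part of this sum, with 506.4 CPM in wildtype replicate 1 and 336.4 in mutant replicate 3. The row marco held 185.1 and 95.6 CPM in these pools, so the sum mainly followed few rows. Of 19 tested macrophage rows 0 were called, where 2.02% of all tested genes were, and 14 had values below 0, where 49.6% did. Their median was -0.23, against 0.00 over all tested genes. Single macrophage rows lay on both sides of 0, and several rows share the symbol MFAP4. The lowest and the highest value both came from MFAP4 rows, -0.87 (ENSDARG00000088745) and 0.92 (ENSDARG00000089667, under 1 CPM). The complement genes c1qa, c1qb and c1qc had -0.37, -0.22 and -0.28, SPI1 -0.23 and marco -0.14, while csf1ra had 0.06 and the MPEG1 rows ENSDARG00000055290 and ENSDARG00000043093 had 0.03 and 0.78. For neutrophils the sum ran from 39.5 to 64.2 CPM in wildtype and from 42.1 to 72.6 CPM in mutants, with the granule gene lyz at 0.0811 to 0.498 CPM in every pool. T and NK cell markers summed to 17.3 to 24.2 CPM in wildtype and 14.7 to 21.2 CPM in mutants, and B cell markers to 41.6 to 71.1 and 48.9 to 59.7 CPM. Median log2 fold changes were -0.14 for neutrophil, -0.26 for T and NK cell and -0.17 for B cell rows. The part of leukocyte numbers in the lower chemokine values was not tested.

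**Figure D4:**
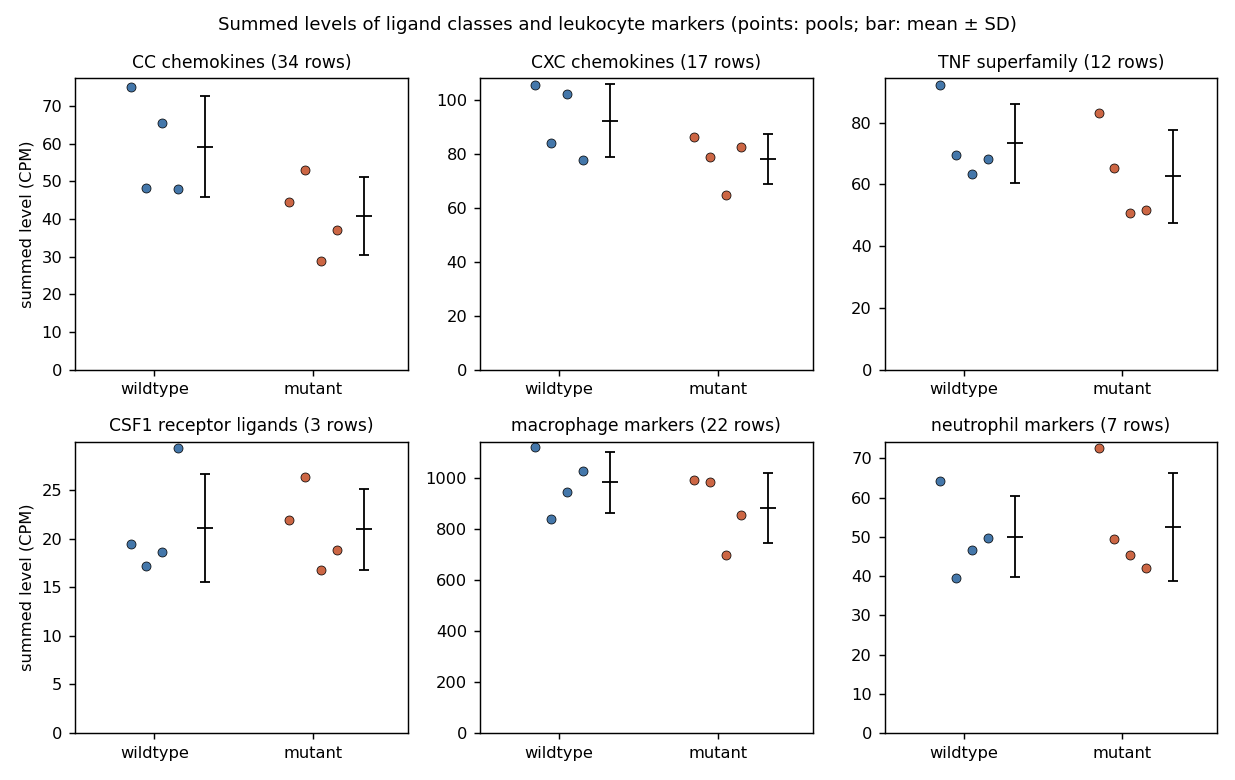
Summed level in CPM (y axis, from 0) of 4 ligand classes and of macrophage and neutrophil markers, with a point for each pool and the mean ± SD as a bar. Genotypes overlap in all 6 panels, and mutant replicate 3 is the lowest pool in every panel except that of neutrophil markers.

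Receptors of these ligands gave no call either. Of 75 rows taken by the spelling of chemokine, interleukin and TNF family receptors, 57 were tested. EdgeR called 0 of these, where 2.02% of all tested genes were called. Below an unadjusted p of 0.05, 4 were lower (7.02%, where 8.6% of all tested genes were) and 2 higher (3.51%, where 9.42% were). The median was -0.07. The RANKL receptor tnfrsf11a averaged 40.5 ± 7.85 CPM in wildtype and 58.8 ± 8.09 in mutant pools (log2 fold change 0.54 ± 0.152, edgeR adjusted p = 0.0944), and it was the 1 receptor row that DESeq2 called higher, where 3.42% of all tested genes were. The CSF1 receptor paralog csf1rb stood at 3.82 ± 0.509 and 2.58 ± 0.762 CPM without overlap (-0.57 ± 0.238, edgeR adjusted p = 0.234). The spelling also took a pair of IL1RAPL1 rows, whose mammalian counterpart is a synaptic protein. They had -2.22 ± 0.598 (ENSDARG00000104853, under 1 CPM) and -0.29 ± 0.0946 (ENSDARG00000062045), with edgeR adjusted p-values of 0.0803 and 0.136.

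Genes that act downstream of cytokine receptors gave no call. Of 38 tested rows of the NF-kB, JAK-STAT and inflammasome pathways 0 were called by edgeR, where 2.02% of all tested genes were. At an unadjusted p under 0.05, 2 were higher (5.26%, where 9.42% of all tested genes were) and 0 lower (where 8.6% were). Their median was 0.01. The transcription factor STAT3, which gp130 receptors activate, averaged 84.2 ± 7.80 CPM in wildtype and 103.5 ± 4.23 in mutant pools without overlap (0.30 ± 0.108, edgeR adjusted p = 0.180). The NF-kB inhibitor TNFAIP3 had 0.38 ± 0.167 (edgeR adjusted p = 0.253), and the transcription factor stat5b -0.25 ± 0.158 (0.444).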

How the data were processed

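Libraries were made with a directional kit, per the labels' protocols. The authors deposited raw read counts per gene from featureCounts 2.0.3 over exons (strand setting 2, Ensembl 109, GRCz11), per the file headers, with 1 column per pool and the exonic length of each gene as another deposited column. STAR, fastp, FastQC and MultiQC are named in the submitters' processing notes. Reads mapped to several places or shared by overlapping genes were not counted under the options in the header, so close copies are uncertain. Symbols were paired with 29201 of 32520 gene IDs and are printed as that table gives them. The ligand rows and lists were chosen with earlier results of these data known.

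From the counts, genes were filtered with filterByExpr (minimum count 10), scaled with TMM factors and tested by edgeR 4.0.16 under R 4.3.3. The model held genotype alone, and the threshold was an adjusted p of 0.05 over all 17949 genes. These factors also scale the CPM and RPKM values. Each SE was obtained as the absolute log2 fold change over the root of the F statistic. Positive fold changes are higher in mutants. Labels give pools as separate samples, and the p-values rest on their spread. The rows named are those with an unadjusted p under 0.05, the 3 most abundant and the smallest p of each class, and the 4 smallest p of the receptor and signalling lists, of which 1 is not reported here. Other rows were chosen after their values were seen. Alternatives were other scaling, filters, tests (DESeq2 1.42.0, limma-voom with limma 3.58.1), a replicate block, removal of a trend on exonic length (lowess span 0.3), a threshold of 0.1 and each pool left out in turn. The fits were checked on simulated data, where changes were given only to genes above a set mean CPM. Recovery of changes in rows of low level was not checked. Of the same-numbered pools only those of replicate 1 deviated together, with a correlation of 0.246. Numbers were not taken as pairs in the main model. No sequence of the rows was used here.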

Additional observations from a re-analysis of the deposited data

Results flagged for a closer look

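In 4 of the 62 groups of 4 pools formed by the 31 named rows, a single pool stood apart from the other 3 by Dixon's criterion, which chance meets in about 1 of 20 groups. For cxcl32b.1 mutant replicate 2 held 0.426 CPM, above the other mutant pools. For il15l wildtype replicate 3 held 0.418 CPM, below the other wildtype pools. For il11b and m17, both ligands acting through gp130, mutant replicate 2 stood highest with 0.912 and 0.588 CPM.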

How the results depend on the processing

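The count of called rows among the 96, 0 higher and 0 lower, became 1 higher with no filter on low counts, 1 higher and 2 lower with DESeq2, and 1 higher and 2 lower at a threshold of 0.1. The row called higher was il4i1, which encodes no ligand. With each pool left out it was 0 higher, and 0 to 1 lower. Other scaling, the stricter filter, limma-voom, the replicate block and removal of the length trend gave 0 calls. They tested 59 rows, or 37 with the stricter filter. Calls over all tested genes are not given here for DESeq2 size factors, the stricter filter, limma-voom and the length trend. For these settings the 0 calls have no share to stand beside. Receptor rows, 0 and 0, became 1 higher with DESeq2, and 1 higher and 1 lower at 0.1, and stayed at 0 with each pool left out. Over all tested genes, 205 higher and 158 lower became 60 and 97 with library totals alone, 614 and 481 with DESeq2, 126 and 84 with the replicate block, 502 and 390 at 0.1, and 29 to 273 and 37 to 200 with each pool left out. The correlations of same-numbered pools' deviations were 0.246, -0.071, 0.0365 and -0.066. The value of replicate 1 was the largest of any wildtype pool with any mutant pool, and the next was 0.143. The lowest was -0.203, for wildtype replicate 1 with mutant replicate 3. So few values cannot settle whether the numbers mark pairs. With the block 0 ligand rows were called.

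The median of the tested rows, il4i1 and il6st included, lay between -0.38 and -0.17 over all alternatives, and was -0.28 with the length trend removed. Library totals alone shifted the median of all tested genes to -0.03. Of 488 alternative values of named rows, 30 had the other sign, in 9 rows. They were 0.0167 for il1fma and -0.0432 for IL16 with the length trend removed, -0.01 for IL16 with library totals alone, and 0.019 for csf1a and -0.0064 for il34 with limma-voom. With each pool left out the ranges were -0.27 to 0.0819 for cxcl18b, -0.20 to 0.0162 for tnfsf10l, -0.86 to 0.42 for il1b, -0.19 to 0.17 for il1fma, -0.74 to 0.14 for il12ba, -0.77 to 0.29 for m17, -0.23 to 0.27 for csf1a, -0.12 to 0.14 for il34 and -0.15 to 0.14 for IL16. The cause was not tested. Low counts limit many rows: of the 96, 37 could not be tested.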
